A study of Homo sapiens with 12 samples.

Results

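Integrin, laminin and collagen genes were described in Huh7 cells, an established human hepatocellular carcinoma line, across 4 groups. They were taken from the gene table by symbol: ITGA or ITGB with a number, ITGAV, LAMA, LAMB or LAMC with a digit, and COL genes with a chain number. Of 85 rows with such a name, 76 had distinct symbols, and 50 of these symbols reached 10 counts in 3 or more of the 12 samples. These 50 genes, out of 17092 genes of the series past the same filter, were 17 integrin subunits, 9 laminin chains and 24 collagen chains. Of the other 35 rows, 9 were second entries of a symbol and held no count. ITGB2 and ITGB7 reached the filter through the GO–Rg3–DOX samples alone, and COL11A1 reached it with exactly 10 counts in 3 samples, while COL16A1, COL4A4 and COL6A6 fell short of it with 10 counts or more in 2 samples. COL1A1 and LAMB4 would also have fallen short of it without the GO–Rg3–DOX samples.

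All cells were cultured for 24 h before treatment, and treated cells were then exposed for 6 h. The groups were 3 samples each of untreated cells in medium, cells with graphene oxide (GO) at 400 µg/mL, cells with GO carrying the ginsenoside Rg3 (GO–Rg3) at 400 µg/mL, and cells with GO–Rg3 that also carried the anthracycline doxorubicin (GO–Rg3–DOX) at 100 µg/mL. Because the dose of GO–Rg3–DOX differed from that of GO and GO–Rg3, it was compared with untreated cells only. The part of dose and the part of doxorubicin in that difference cannot be told apart.

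Integrins are receptors made of an alpha and a beta subunit that cross the plasma membrane and tie the cytoskeleton to the extracellular matrix. Laminins are trimers of an alpha, a beta and a gamma chain that build basement membranes, and collagens are triple helices of chains that form fibrils, networks or shorter assemblies. In the liver, hepatocytes make some laminin and collagen, while fibrillar collagen is known mainly as a product of activated stellate cells.

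The 12 libraries held 27802871 to 38877420 counts. The replicates are not described as separate cultures in the labels, so the p-values below measure only the spread between these samples, which may be technical. The mitochondrial share of counts was 5.31 to 6.28% in untreated cells, 12.1 to 24.1% in GO, 6.89 to 7.42% in GO–Rg3 and 12.8 to 19.4% in GO–Rg3–DOX. GO replicate 1 had the highest share and stood apart from its group, so counts of genes in GO, and values that turn on it, are also given without it. Over 11 hepatocyte lineage markers, all of which passed the filter, the summed level was 27237 to 27526 CPM (counts scaled by TMM to effective library size) in untreated cells, 18998 to 21473 in GO, 22730 to 24956 in GO–Rg3 and 37620 to 41966 in GO–Rg3–DOX, and AFP and ALB were among the highest. Not every marker followed the sum: HNF4A was at 352 to 378 CPM in untreated cells, 545 to 574 in GO and 158 to 209 in GO–Rg3–DOX. Of the 11 markers, 6 had a log2 fold change above 0 in GO and 10 in GO–Rg3–DOX. The endothelial markers PECAM1 and KDR had no count in any sample. Of 10 stellate cell and fibroblast markers 7 passed the filter, 3 of which are collagens of the set, with a summed level of 19.7 to 23.1 CPM in untreated cells, 15.97 to 20.0 in GO, 21.9 to 22.8 in GO–Rg3 and 28.7 to 30.8 in GO–Rg3–DOX. DCN was at or under 0.0793 CPM and THY1 at or under 0.0391 CPM in every sample. Of 6 leukocyte markers 2 passed the filter, and their list summed to 113 to 162 CPM over the 12 samples, nearly all of it LYZ. Within GO–Rg3, replicates 1 and 2 deviated from their mean in opposite ways with GC content (Spearman's rho 0.63 and -0.68 over genes). In bulk RNA, fewer cells of a kind and less RNA per cell cannot be told apart.

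Promoter windows are shown for the genes on which the integrin and type IV collagen results turn: ITGA5 and ITGAV, which moved in opposite directions in GO, and COL4A1 and COL4A2, which start back to back but differed in level. The windows were taken from RefSeq on GRCh38.p14 and run from 250 bases before the start to 50 bases after it, in the direction of the gene. Capitals mark matches on either strand to the GC box GGGCGG, the CCAAT box, whose name spells it, the TATA box TATAAA or the AP-1 site TGANTCA. Of the 50 genes, 35 had a window there, with 50 windows in all.
ITGA5, chr12:54419217-54419516, minus strand: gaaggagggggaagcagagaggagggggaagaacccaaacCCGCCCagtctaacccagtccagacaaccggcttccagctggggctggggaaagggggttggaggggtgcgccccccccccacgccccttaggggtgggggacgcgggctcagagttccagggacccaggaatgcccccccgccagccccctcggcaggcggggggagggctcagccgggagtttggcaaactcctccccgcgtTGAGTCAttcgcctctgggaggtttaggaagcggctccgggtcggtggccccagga
ITGAV, chr2:186589806-186590105, plus strand: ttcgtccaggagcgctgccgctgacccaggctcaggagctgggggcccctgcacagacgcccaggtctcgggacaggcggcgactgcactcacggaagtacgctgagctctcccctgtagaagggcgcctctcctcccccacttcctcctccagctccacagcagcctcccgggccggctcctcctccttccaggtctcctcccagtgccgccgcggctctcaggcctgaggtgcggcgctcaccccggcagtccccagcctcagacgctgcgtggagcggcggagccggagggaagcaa
COL4A1, chr13:110307108-110307407, minus strand: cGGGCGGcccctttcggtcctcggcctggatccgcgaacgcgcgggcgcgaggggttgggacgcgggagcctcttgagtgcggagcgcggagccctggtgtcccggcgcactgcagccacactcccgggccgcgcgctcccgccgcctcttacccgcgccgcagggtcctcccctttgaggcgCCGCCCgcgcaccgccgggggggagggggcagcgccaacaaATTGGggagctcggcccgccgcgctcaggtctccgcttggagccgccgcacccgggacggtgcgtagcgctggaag
COL4A2, chr13:110307034-110307333, plus strand: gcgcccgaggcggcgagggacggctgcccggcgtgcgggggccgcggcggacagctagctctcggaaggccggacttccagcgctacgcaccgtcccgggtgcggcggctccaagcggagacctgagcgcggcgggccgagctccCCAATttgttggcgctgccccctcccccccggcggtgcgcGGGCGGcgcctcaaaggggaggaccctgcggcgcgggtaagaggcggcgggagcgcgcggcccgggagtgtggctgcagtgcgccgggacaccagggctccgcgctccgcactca

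The ITGA5 window held a GC box starting at -210 and an AP-1 letter match starting at -6. The ITGAV window held none of the 4 motifs. The COL4A1 and COL4A2 starts lay close together on opposite strands, and their windows shared 226 bases, including the same CCAAT match read on either strand. Over 35116 windows of all genes, the GC box was found in 44.95%, the CCAAT box in 34.6%, the TATA box in 11.5% and the AP-1 site in 7.71%. In the 50 windows of the set the shares were 64% for the GC box, 26% for the CCAAT box, 10% for the TATA box and 6% for the AP-1 site. A letter match is not evidence that a factor binds there.

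In untreated cells the levels differed widely, so they were compared as CPM per kb of transcript. ITGB1, the beta subunit shared by the collagen, laminin and fibronectin receptors, had the highest level, 212 ± 6.55 CPM per kb (SD, n = 3). Next were the fibrillar collagens COL5A2 at 117.4 ± 2.61 and COL2A1 at 110.9 ± 2.69, whose values did not overlap. COL2A1 is the main collagen of cartilage, and COL5A2 is a chain that joins collagen fibrils as they start to form. The laminin chain LAMB1 followed at 71.8 ± 1.52, then the integrin subunit ITGAV at 50 ± 2.1 and the laminin chain LAMC1 at 45.6 ± 1.39 CPM per kb, and the values of ITGAV and LAMC1 did not overlap.

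In the other lists the highest gene per length was ITGAV for the alpha subunits, COL4A5, a basement membrane chain, at 4.01 ± 0.255, COL14A1, a collagen that sits on fibril surfaces (FACIT), at 16.8 ± 0.385, and COL18A1, the source of endostatin, at 6.82 ± 1.04 CPM per kb. The lowest, with overlapping values, were COL1A1 at 0.0178 ± 0.0128, ITGB7 at 0.0286 ± 0.00802 and ITGB2 at 0.031 ± 0.0231 CPM per kb. ITGB2 and ITGB7 are the beta subunits of leukocyte integrins, and COL1A1 is the main chain of type I collagen. Exons of COL18A1 overlap SLC19A1 on the opposite strand over 18.5% of their length, those of ITGB7 overlap ZNF740 over 42.3%, those of ITGA9 overlap ITGA9-AS1 over 9.23%, and ITGB3 shares 33.2% with a second gene entry on its own strand. Since it is not known whether strand was used in counting, the levels of these genes are uncertain.

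**Figure D1:**
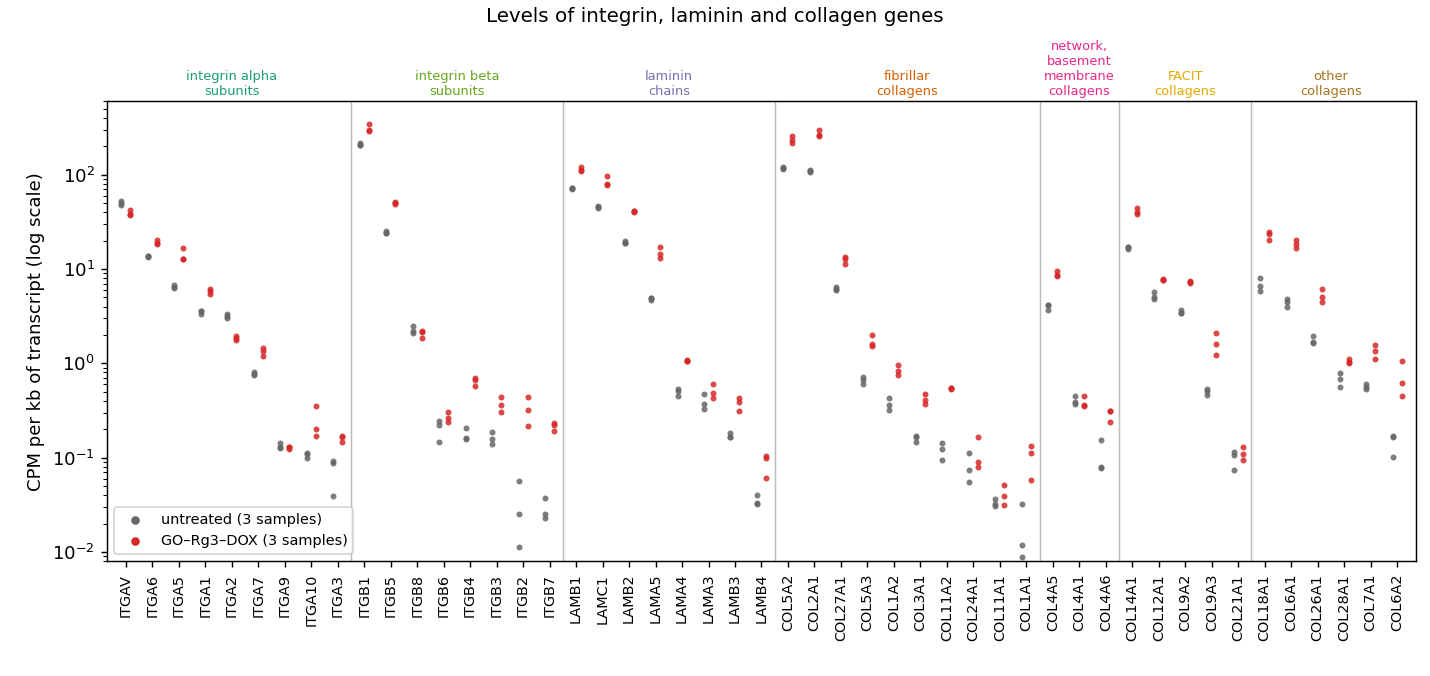
Level of genes of the set in CPM per kb of transcript on a log axis, grouped by role, with 1 point per sample for untreated cells (grey) and GO–Rg3–DOX (red). ITGB1, COL5A2 and COL2A1 are the highest in both groups, and most red points lie above the grey ones.

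Several chains that are known to assemble with the abundant ones were at or near 0. COL5A1, the usual partner of COL5A2, had 9 counts over all 12 samples, and COL4A2, the partner of COL4A1, had 3. COL6A3, which joins COL6A1 and COL6A2 in type VI collagen, had 15 counts, the laminin chain LAMA1 had 1 and the integrin subunit ITGA4 had 9. Counts were seen in 7 samples for COL6A3 and ITGA4, 6 for COL5A1, 2 for COL4A2 and 1 for LAMA1. In the other samples a count of 0 allows up to 3 counts of the library total, for counting error only, so it does not show absence. COL4A1 itself was low, at 2.57, 2.4 and 2.94 CPM in the untreated replicates, 1.53, 2.68 and 2.74 in GO, 3.49, 3.44 and 2.99 in GO–Rg3 and 2.93, 2.3 and 2.36 in GO–Rg3–DOX. GO and GO–Rg3–DOX overlapped the untreated samples, while the 3 GO–Rg3 values lay above them (log2 fold change 0.32, adjusted p = 0.52).

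In GO–Rg3–DOX against untreated cells most collagen, laminin and integrin genes of the set rose. A gene was called at an adjusted p below 0.01 with an absolute log2 fold change above 1, by the quasi-likelihood test of edgeR, adjusted after Benjamini and Hochberg over all 17092 genes. Of the 50 genes, 31 were called higher and 0 lower (30 and 0 by DESeq2), where 12.6% of all genes tested were called higher and 18.2% lower. By the adjusted p alone 39 were higher and 1 was lower, against 25.5% and 30.5% of all genes, and at an unadjusted p under 0.05 it was 40 and 1, against 32.3% and 37.1%. The treated samples lay wholly above the untreated ones for 40 genes and wholly below for 2, which held for 35% and 40.3% of all genes. The median log2 fold change of the set was 1.09, beside -0.06 over all genes. These counts and the median include ITGB2 and ITGB7, which entered the set through this group, and without them 29 of 48 genes were called. COL1A1 and LAMB4, which stay among the 29 and in the counts by role, also needed samples of this group to reach the filter. By role, 18 of 24 collagens, 5 of 9 laminin chains, 3 of 9 alpha and 5 of 8 beta integrin subunits were called higher, and without ITGB2 and ITGB7 it was 3 of 6 beta subunits.

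Scaling and base composition moved this count. With library totals alone the median of all genes was -0.47, and the calls over all genes went from 2159 higher and 3103 lower to 1029 and 4937. Under that scaling 12 of the 50 genes were called higher and 1, ITGA2, lower, while by the adjusted p alone 28 were higher and 2 lower, and the median of the set was 0.68. With an offset for the GC content of transcripts 17 were called higher, 16 of them among the 31, and by the adjusted p alone 38 were higher and 1 was lower. Over all genes the calls with this offset were 1602 higher and 2799 lower, and 4635 were higher and 5225 lower by the adjusted p. The genes that lost their call with it were COL1A2, COL2A1, COL5A3, COL7A1, COL9A2, COL9A3, COL18A1, COL26A1, COL27A1, LAMA5, LAMB2, LAMB3, ITGA3, ITGA5 and ITGB5, at 0.30 to 0.97, and of these LAMB3 and ITGA3 did not pass the adjusted p either. None of the 31 called genes changed direction under either of these settings.

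**Figure D2:**
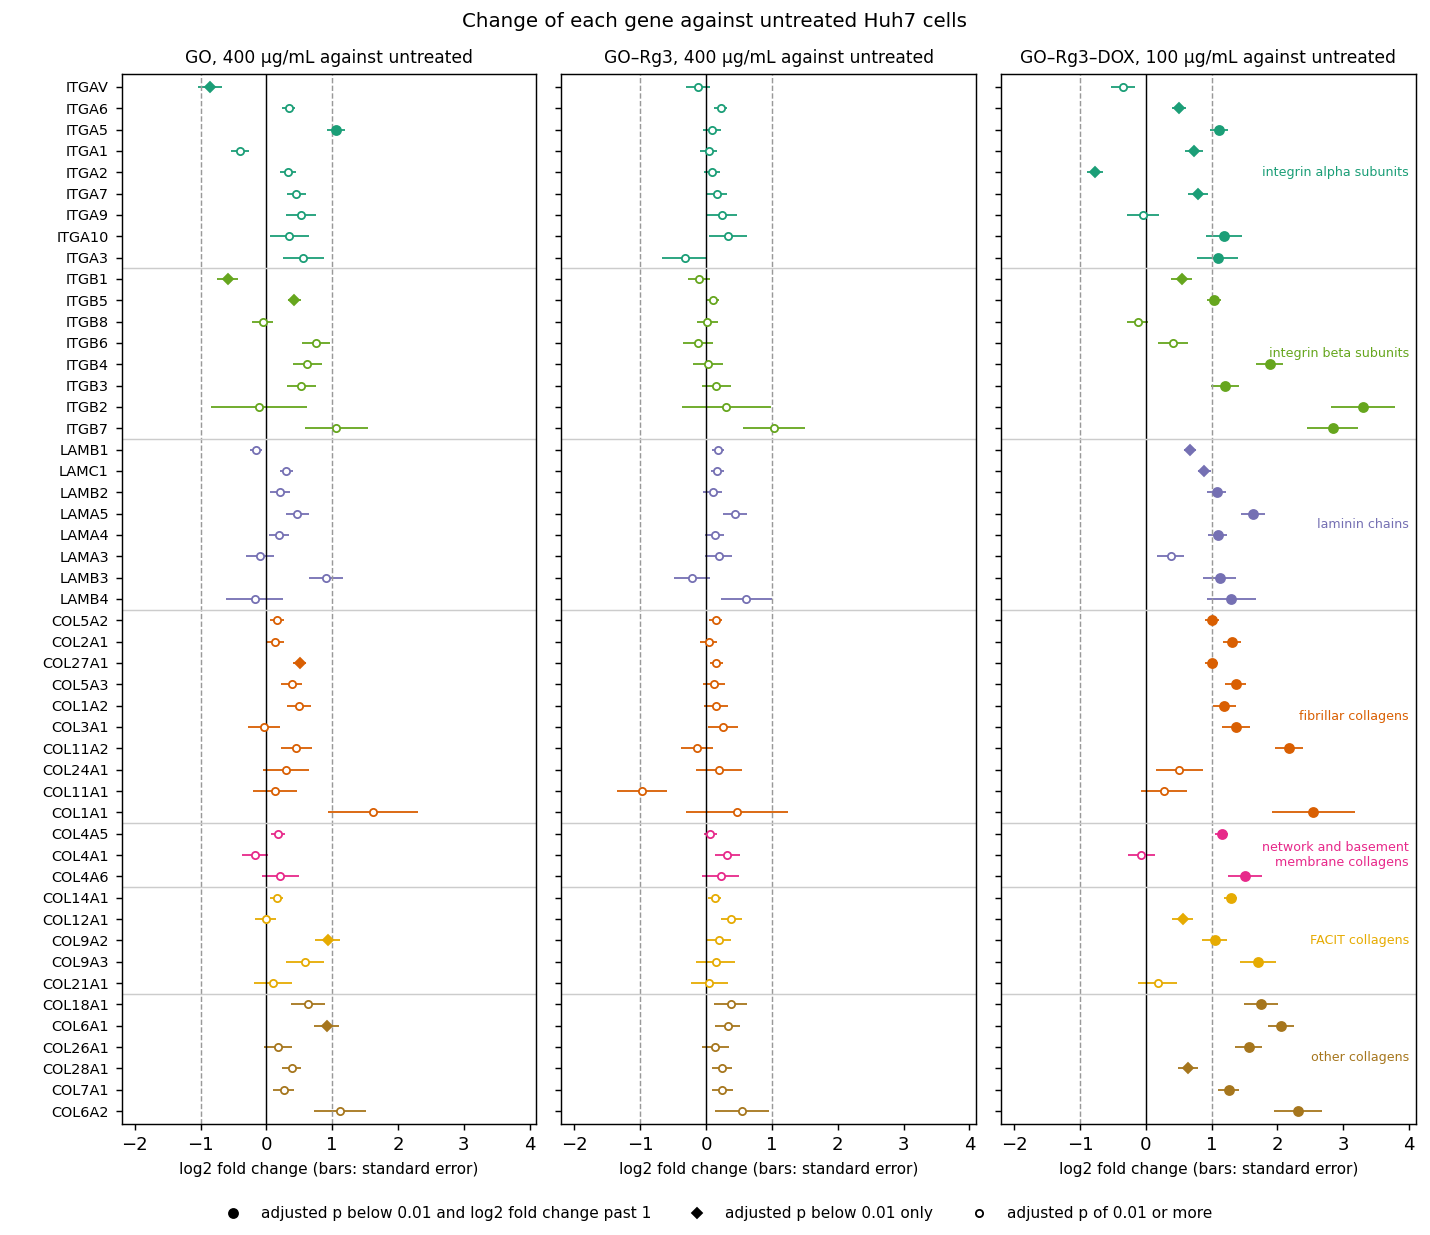
Log2 fold change of genes of the set against untreated cells with its standard error, in 3 panels (GO, then GO–Rg3, then GO–Rg3–DOX), coloured by role. Filled circles passed both thresholds, diamonds passed an adjusted p of 0.01 only, and open circles passed neither. In GO–Rg3–DOX 31 genes lie past 1, in GO 1 gene does so with the test passed, and in GO–Rg3 none does. The 31 include ITGB2 and ITGB7, which reached the filter through the GO–Rg3–DOX samples alone.

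Among the fibrillar collagens 8 of 10 were called higher, beside 12.6% of all genes, with a median log2 fold change of 1.25, beside -0.06. The 8 include COL1A1, which needed samples of this group to reach the filter. COL1A2, COL2A1, COL5A3 and COL27A1 lost their call with the GC offset. COL2A1 was measured at 575, 547 and 561 CPM in the untreated replicates and 1509, 1313 and 1346 CPM in GO–Rg3–DOX. Every treated sample lay above every untreated one, and the log2 fold change was 1.31 ± 0.13 (SE, adjusted p = 6.18e-07), or 0.70 with the GC offset. COL5A2 went from 818, 805 and 783 to 1745, 1477 and 1605 CPM, again without overlap, and its log2 fold change of 1.005 ± 0.10 (SE, adjusted p = 6.56e-07) lay at the threshold: without GO–Rg3–DOX replicate 1 it was 0.94 and without untreated replicate 3 it was 0.99, so the call was lost. COL27A1 lay at the same threshold, with a log2 fold change of 1.001 ± 0.10 (SE, adjusted p = 4.05e-07), and its call was lost without GO–Rg3–DOX replicate 2 or 3 or untreated replicate 1 or 3, at 0.94 to 0.997.

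COL11A2, a chain of the type XI collagen that sits inside cartilage fibrils, was measured at 0.608, 0.927 and 0.801 CPM in untreated cells and 3.42, 3.56 and 3.55 CPM in GO–Rg3–DOX. The groups were far apart, with a log2 fold change of 2.18 ± 0.21 (SE, adjusted p = 3.19e-07), and it is a gene with several entries in the table, of which 1 held counts. COL1A1 and COL1A2, the chains of type I collagen, had log2 fold changes of 2.55 ± 0.63 (SE, adjusted p = 0.0022) and 1.19 ± 0.18 (SE, adjusted p = 2.41e-05). COL1A1 rested on 2, 6 and 3 counts in the untreated samples and 16, 22 and 9 in GO–Rg3–DOX, and its adjusted p was 0.0144 without GO–Rg3–DOX replicate 2, 0.0122 without untreated replicate 1 and 0.0129 without untreated replicate 3. COL1A1 also needed GO–Rg3–DOX samples to reach the filter, so its call was favoured by how the set was chosen. COL3A1, which joins type I collagen in soft tissue, had a log2 fold change of 1.37 ± 0.22 (SE, adjusted p = 4.48e-05), and COL5A3 one of 1.37 ± 0.16 (SE, adjusted p = 2.17e-06), which was 0.67 with the GC offset. Of the 7 stellate cell and fibroblast markers tested 4 were called higher, the collagens COL1A1, COL1A2 and COL3A1 and the receptor PDGFRB (1.93 to 2.94 CPM in untreated cells and 5.67 to 8.56 CPM in GO–Rg3–DOX). The most abundant of these markers, PDGFRA, was lower without overlap, at 11.5 to 12.7 and 9.59 to 11.1 CPM, and LUM and RGS5 overlapped the untreated samples. The part of such cells in the collagen levels was not tested. COL11A1 and COL24A1 did not pass, at 0.28 and 0.51.

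The network and basement membrane collagens COL4A5 and COL4A6 were called, while COL4A1 was not. COL4A5 and COL4A6 lie head to head on the X chromosome, at 107683068 to 107940775 and 107398837 to 107682727 on GRCh37. COL4A5 went from 27.3, 27 and 24.3 CPM in untreated cells to 62.7, 55.6 and 56.1 CPM in GO–Rg3–DOX, a log2 fold change of 1.15 ± 0.10 (SE, adjusted p = 1.31e-07), and COL4A6 had one of 1.51 ± 0.26 (SE, adjusted p = 0.000115). Neither pair of groups overlapped. The log2 fold change of COL4A1 was -0.07 ± 0.20 (SE, adjusted p = 0.779), and its groups overlapped.

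Type VI collagen forms beaded filaments around cells. COL6A2 (chromosome 21, 47518026 to 47552762) was measured at 0.582, 0.575 and 0.353 CPM in untreated cells and 2.14, 3.67 and 1.56 CPM in GO–Rg3–DOX, a log2 fold change of 2.31 ± 0.36 (SE, adjusted p = 4.77e-05), which was 1.89 without GO–Rg3–DOX replicate 2, the highest sample. Its neighbour COL6A1 (chromosome 21, 47401684 to 47424964) went from 20.2, 16.8 and 18.9 to 84.8, 70.6 and 76.7 CPM, a log2 fold change of 2.05 ± 0.19 (SE, adjusted p = 2.05e-07). Both were without overlap, and COL6A1 kept its call with the GC offset (1.39) and with library totals (1.63).

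COL18A1 (chromosome 21, 46825080 to 46933634) went from 43, 31.9 and 35.8 CPM to 111.2, 127.4 and 134 CPM, a log2 fold change of 1.75 ± 0.26 (SE, adjusted p = 2.42e-05), which was 0.91 with the GC offset. COL26A1 was measured at 5.82, 5.02 and 4.88 CPM in untreated cells and 18.1, 13.5 and 15 CPM in GO–Rg3–DOX, a log2 fold change of 1.56 ± 0.20 (SE, adjusted p = 6.85e-06). COL7A1, the collagen of anchoring fibrils, had a log2 fold change of 1.26 ± 0.16 (SE, adjusted p = 4.64e-06). With the GC offset they were 0.87 and 0.53. In all 3 the treated samples lay above the untreated ones. COL28A1 passed the adjusted p alone, at 0.64 ± 0.15 (SE, adjusted p = 0.00147), and without untreated replicate 1 it did not (0.52, adjusted p = 0.0118).

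Of the FACIT collagens, which bind to the surface of fibrils, COL9A3, COL14A1 and COL9A2 were called. COL9A3 was measured at 1.27, 1.15 and 1.32 CPM in untreated cells and 3.05, 5.21 and 3.97 CPM in GO–Rg3–DOX, with a log2 fold change of 1.71 ± 0.27 (SE, adjusted p = 5.37e-05). COL14A1, the most abundant of them, went from 136, 136 and 131 to 356, 306 and 325 CPM, with a log2 fold change of 1.29 ± 0.10 (SE, adjusted p = 2.9e-08), and COL9A2 had one of 1.05 ± 0.19 (SE, adjusted p = 0.000152). The groups did not overlap in any of the 3. COL14A1 had a larger log2 fold change with the GC offset, 1.499, while COL9A3 and COL9A2 had 0.85 and 0.30. COL12A1 passed the adjusted p alone, at 0.56 ± 0.16 (SE, adjusted p = 0.00538), and did not pass when GO–Rg3–DOX replicate 1, 2 or 3 or untreated replicate 1 or 3 was left out (0.51 to 0.57, adjusted p = 0.0143 to 0.0254). COL21A1 did not pass, at 0.18.

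Of the laminin chains, LAMA5, LAMB2, LAMA4, LAMB3 and LAMB4 were called higher in GO–Rg3–DOX. LAMA5, the main alpha chain of adult epithelial basement membranes (chromosome 20, 60883011 to 60942368), was measured at 53.9, 55.9 and 55.9 CPM in untreated cells and 150.1, 197 and 167 CPM in GO–Rg3–DOX. The groups were far apart, with a log2 fold change of 1.63 ± 0.18 (SE, adjusted p = 1.25e-06), which was 0.82 with the GC offset. LAMB1 and LAMC1, the most abundant chains, went from 412, 408 and 396 to 681, 626 and 633 CPM and from 353, 374 and 358 to 760.2, 623 and 629 CPM. Neither overlapped, and their log2 fold changes of 0.67 ± 0.09 (SE, adjusted p = 1.02e-05) and 0.89 ± 0.10 (SE, adjusted p = 1.52e-06) passed the adjusted p but not the fold threshold. Over the alternative fits LAMB1 had 0.25 to 0.89, and in 1 of them it did not pass the adjusted p.

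LAMB2 had a log2 fold change of 1.08 ± 0.15 (SE, adjusted p = 1.07e-05) and LAMA4 one of 1.09 ± 0.15 (SE, adjusted p = 9.8e-06). LAMB4, the neighbour of LAMB1 on chromosome 7, was under 1 CPM in every sample and had a log2 fold change of 1.30 ± 0.37 (SE, adjusted p = 0.00623). Its adjusted p lay between 0.0125 and 0.0297 without GO–Rg3–DOX replicate 1 or 3 or when any 1 of the 3 untreated samples was left out. LAMB4 also needed GO–Rg3–DOX samples to reach the filter, so its call was favoured by how the set was chosen. LAMA3 and LAMB3 are chains of the laminin that anchors surface epithelia. LAMB3 had a log2 fold change of 1.12 ± 0.25 (SE, adjusted p = 0.00116), while LAMA3 did not pass, at 0.38 ± 0.21 (SE, adjusted p = 0.12).

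Of the 17 integrin subunits, 12 were higher in GO–Rg3–DOX and 1 was lower by the adjusted p, beside 25.5% and 30.5% of all genes. Calls were made for 8 of them, all higher, beside 12.6% of all genes. Without ITGB2 and ITGB7, which passed the filter through this group alone, 10 of 15 were higher, 1 was lower and 6 were called. ITGB1 (chromosome 10, 33176201 to 33294720) was measured at 819, 774 and 780.4 CPM in untreated cells and 1077, 1108 and 1275 CPM in GO–Rg3–DOX. The groups did not overlap, but the log2 fold change of 0.54 ± 0.16 (SE, adjusted p = 0.00874) did not pass when any of the 6 samples compared was left out (0.47 to 0.59, adjusted p = 0.0139 to 0.0405). ITGB4, which pairs with ITGA6 in hemidesmosomes, went from 1.22, 0.959 and 0.919 to 4.16, 3.88 and 3.43 CPM, a log2 fold change of 1.89 ± 0.21 (SE, adjusted p = 1.15e-06). ITGA6 went from 80.1, 79.2 and 78 to 118.6, 108.0 and 110.4 CPM, at 0.51 ± 0.10 (SE, adjusted p = 0.000456), and the laminin receptor subunit ITGA7 had 0.80 ± 0.15 (SE, adjusted p = 0.000221), which was 0.29 with the GC offset (adjusted p = 0.05). ITGB4 and ITGA6 rose without overlap of the groups. Over the alternative fits the log2 fold change of ITGA6 was 0.09 to 0.81, and in 1 of them it did not pass the adjusted p.

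ITGB5, a partner of ITGAV in vitronectin receptors, had a log2 fold change of 1.04 ± 0.10 (SE, adjusted p = 3.24e-07), and ITGB3, another such partner, one of 1.20 ± 0.21 (SE, adjusted p = 0.00012). ITGA5, the alpha subunit of the fibronectin receptor, went from 28.8, 27.6 and 27.1 to 71.8, 54.8 and 53.8 CPM, at 1.11 ± 0.14 (SE, adjusted p = 4.24e-06), and without GO–Rg3–DOX replicate 1 it was 0.96 and lost its call. ITGA10 and ITGA3, a collagen and a laminin receptor subunit, had 1.19 ± 0.28 (SE, adjusted p = 0.00148) and 1.09 ± 0.31 (SE, adjusted p = 0.00542), and with the GC offset ITGA3 had 0.56 (adjusted p = 0.111). Both were low, and the adjusted p of ITGA10 was 0.0146 without GO–Rg3–DOX replicate 2, while that of ITGA3 was 0.011 to 0.0241 without GO–Rg3–DOX replicate 1, 2 or 3 or untreated replicate 2. ITGB2 had 1 to 6 counts in untreated samples and 16 to 34 in GO–Rg3–DOX, and ITGB7 had 2 to 4 and 14 to 18. These counts let ITGB2 and ITGB7 into the set, so their calls were favoured by how the set was chosen. No fold change or p-value is printed for them here. Their tests still enter the counts of called genes, the median of the set and the plot of log2 fold changes.

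In the fit used for the calls above, the gene of the set that fell by the adjusted p was ITGA2, the alpha subunit of a collagen receptor. It was named after its values were seen. ITGA2 (chromosome 5, 52285170 to 52390609) was measured at 24.8, 26.4 and 23.5 CPM in untreated cells and 14.5, 13.9 and 15.4 CPM in GO–Rg3–DOX. Every treated sample lay below every untreated one, and the log2 fold change was -0.77 ± 0.12 (SE, adjusted p = 5.92e-05). Its neighbour ITGA1 (chromosome 5, 52083750 to 52255039), the alpha subunit of another collagen receptor, went from 38.6, 38.2 and 36 to 66.7, 58.8 and 62.1 CPM, at 0.73 ± 0.13 (SE, adjusted p = 0.000192). Over the alternative fits ITGA1 had 0.31 to 1.21, and in 1 of them it did not pass the adjusted p. Exons of ITGA1 overlap ITGA2-AS1 over 7.47% of their length. ITGAV was measured at 265, 269 and 299 CPM in GO–Rg3–DOX, below all untreated samples, but its log2 fold change of -0.34 did not pass (adjusted p = 0.111). It was 0.15 with the GC offset (adjusted p = 0.291) and -0.75 with library totals (adjusted p = 0.0075), and it also passed without the filter (-0.42) and in the 6 samples alone (-0.30). ITGB8, ITGA9 and ITGB6 did not pass either, at -0.12, -0.04 and 0.41.

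**Figure D3:**
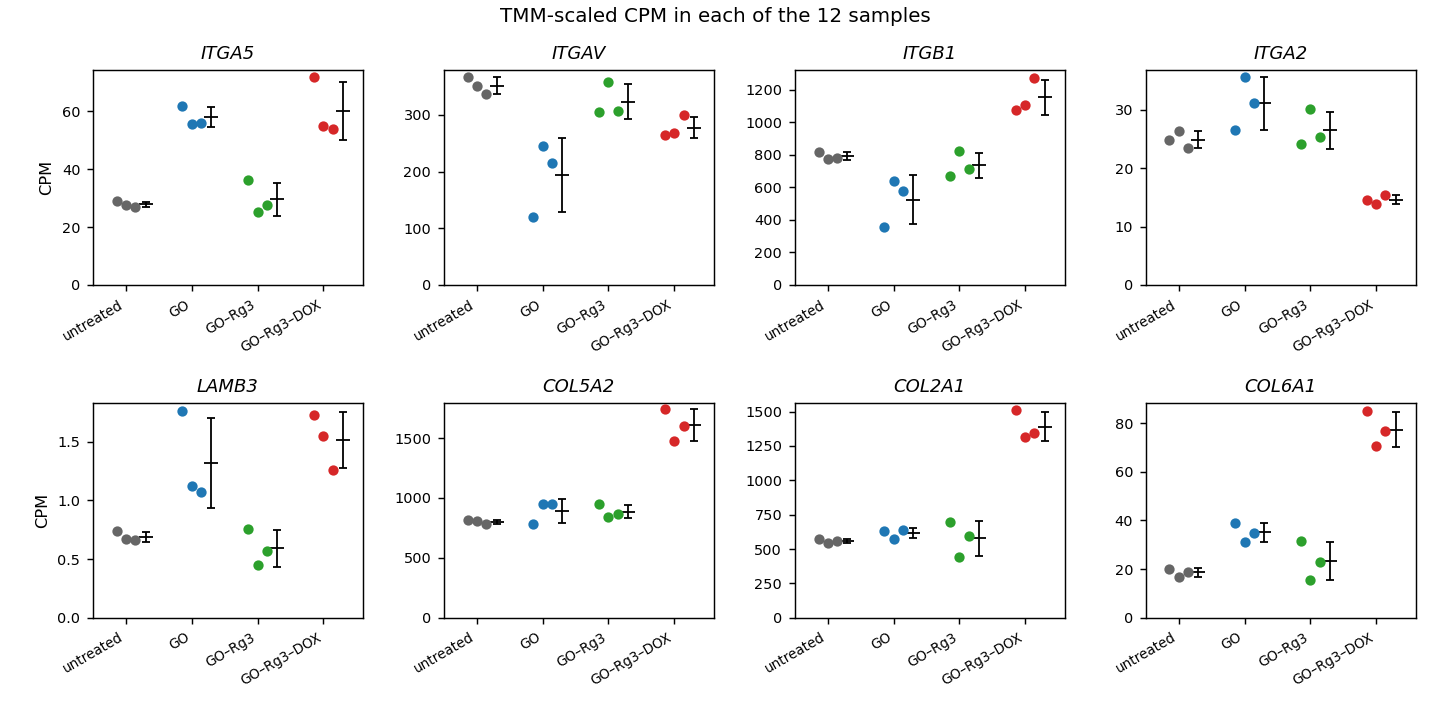
CPM of 8 genes in each of the 12 samples, with the mean and SD of each group of 3 beside the points, on axes that start at 0. ITGA5 is high in GO and GO–Rg3–DOX, ITGAV and ITGB1 are lowest in GO with replicate 1 lowest of all, ITGA2 is low in GO–Rg3–DOX alone, and the collagens are highest in GO–Rg3–DOX.

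Genes with a higher GC content had larger changes in GO–Rg3–DOX. Across the 50 genes, which share the same 6 libraries, Spearman's rho between log2 fold change and transcript GC content was 0.71, where it was 0.37 over 16622 genes of the table. With the span of the gene on the chromosome rho was -0.49 in the set and -0.14 over all genes. The set had a median GC content of 53.9%, against 48.4% over all genes, and a median span of 82234 bp against 26521 bp. Of 20 genes with a GC content under 50%, 5 were called higher, of 13 with 50 to 60% it was 10, and of 17 with 60% or more it was 16. The 13 include ITGB2 and ITGB7, which entered the set through this group. Over all genes the shares called higher in the same ranges were 5.41%, 16.2% and 33.1%. The median log2 fold change in the 3 ranges was 0.55, 1.15 and 1.56 in the set and -0.33, 0.23 and 0.67 over all genes. The part of base composition in the changes was not tested beyond the offset given above.

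**Figure D4:**
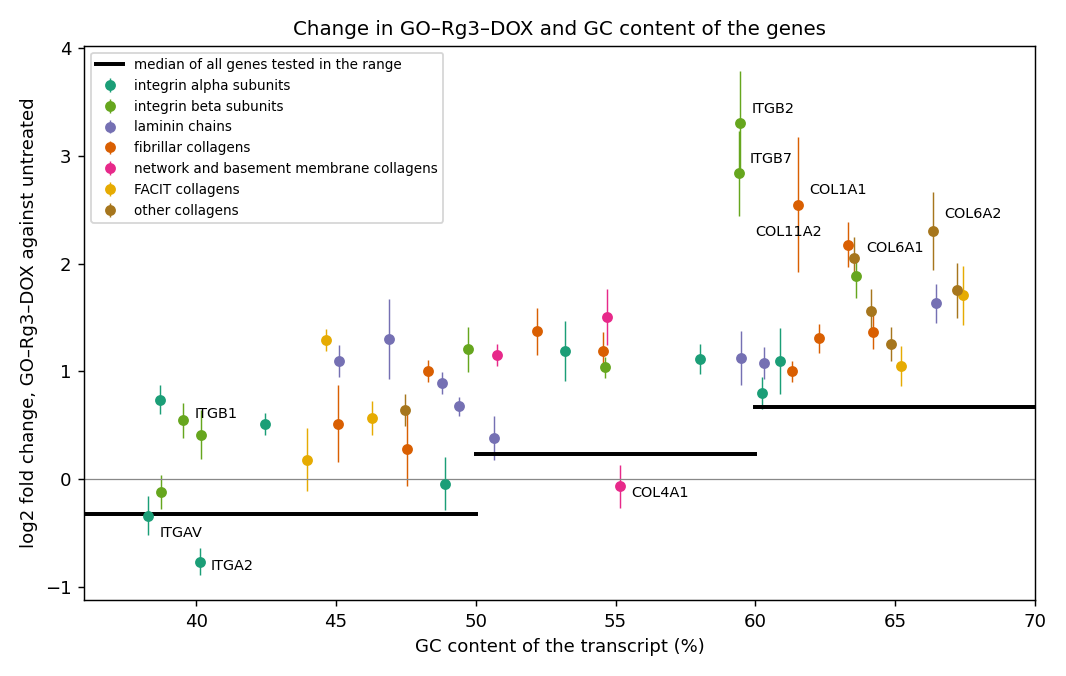
Log2 fold change in GO–Rg3–DOX against untreated cells, with its standard error, against the GC content of the transcript for genes of the set, coloured by role. Black lines give the median of all genes tested in 3 GC ranges (-0.33, 0.23 and 0.67). The integrins ITGAV and ITGA2 lie at the low GC end below 0, and COL6A1, COL6A2 and COL11A2 at the high GC end above 2.

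In GO against untreated cells few genes of the set moved past the thresholds. By edgeR and by DESeq2 alike 1 was called higher and 0 lower, where 3.84% of all genes tested were called higher and 2.62% lower. By the adjusted p alone 5 were higher and 2 lower, against 12.1% and 15.4% of all genes, and at an unadjusted p under 0.05 it was 21 and 3, against 24.2% and 26.5%. Without GO replicate 1, 1 was called higher and 0 lower, and 7 were higher and 1 was lower by the adjusted p, against 10.6% and 15.7% of all genes. The groups did not overlap for 28 higher and 4 lower genes, beside 28.6% and 29.9% of all genes. The median log2 fold change of the set was 0.31, beside 0.01 over all genes. With the GC offset it was 0.16, beside -0.01. Spearman's rho between log2 fold change and transcript GC content in GO was 0.57 in the set and 0.44 over all genes. With library totals the median of all genes was -0.11, and the calls over all genes went from 657 higher and 448 lower to 476 and 695.

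The called gene was ITGA5 (chromosome 12, 54789045 to 54813050), whose promoter window is printed above. It was measured at 28.8, 27.6 and 27.1 CPM in the untreated replicates and 62, 55.8 and 56.1 CPM in GO. The groups were far apart and the log2 fold change was 1.06 ± 0.14 (SE, adjusted p = 4.5e-05). Without GO replicate 1 it was 1.01 (adjusted p = 0.000108), and with the GC offset or library totals it was 0.80 or 0.93, which passed the adjusted p but not the fold threshold. With the GC offset the gene called was ITGB6, an epithelial partner of ITGAV, at 1.03, which had 0.75 ± 0.22 (SE, adjusted p = 0.0117) without it.

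The genes past the adjusted p alone were few and were named after their values were seen. ITGAV (chromosome 2, 187454737 to 187545628) was measured at 367, 351 and 337 CPM in untreated cells and 119.7, 245 and 215 CPM in GO. All GO samples lay below the untreated ones, replicate 1 lowest, and the log2 fold change was -0.86 ± 0.18 (SE, adjusted p = 0.00175). Without GO replicate 1 it was -0.61 (adjusted p = 0.000317), and without GO replicate 2 it was -1.07 and would be called. ITGB1 was measured at 356, 639.7 and 581 CPM in GO, again with replicate 1 lowest, and had a log2 fold change of -0.59 ± 0.16 (SE, adjusted p = 0.00986). It passed in 1 of the 6 fits that left out a sample, the fit without GO replicate 2, and was -0.38 (adjusted p = 0.012) without GO replicate 1. With the GC offset ITGAV had -0.55 (adjusted p = 0.00246), while ITGB1 had -0.31 (adjusted p = 0.0375) and did not pass.

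COL6A1 went from 20.2, 16.8 and 18.9 CPM in untreated cells to 39.2, 31.4 and 34.9 CPM in GO, a log2 fold change of 0.91 ± 0.19 (SE, adjusted p = 0.00133), which was 0.83 without GO replicate 1. COL9A2 went from 10.5, 9.65 and 9.82 to 23.6, 15.6 and 18.1 CPM, at 0.93 ± 0.19 (SE, adjusted p = 0.00116), and was 0.75 without GO replicate 1 and 1.06 without GO replicate 2. The GO samples of both lay above the untreated ones. With the GC offset COL6A1 had 0.50 (adjusted p = 0.000288) and COL9A2 0.47 (adjusted p = 0.000386). COL27A1 had a log2 fold change of 0.50 ± 0.10 (SE, adjusted p = 0.000938), which was 0.16 with the GC offset (adjusted p = 0.208) and 0.51 without GO replicate 1, and ITGB5 one of 0.42 ± 0.10 (SE, adjusted p = 0.00359), which did not pass without GO replicate 3 or any of the untreated samples (adjusted p = 0.012 to 0.0194). LAMB3 and COL6A2 did not pass, at 0.90 ± 0.25 (SE, adjusted p = 0.0101) and 1.11 ± 0.39 (SE, adjusted p = 0.0326), nor did they without GO replicate 1 (0.67 and 1.13). Without that sample ITGA2 and ITGA6 passed, at 0.43 (adjusted p = 0.00734) and 0.43 (adjusted p = 0.00148), and ITGB1 did not. With all samples and the GC offset ITGB5 did not pass (0.25, adjusted p = 0.0149). ITGA2 (0.61, adjusted p = 9.31e-06), ITGA6 (0.54, adjusted p = 2.31e-05) and LAMC1 (0.29, adjusted p = 0.00956) passed with that offset. The abundant COL5A2 and COL2A1 had 0.16 and 0.13 without it, with overlapping groups.

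In GO–Rg3 against untreated cells 0 genes of the set were called by edgeR or by DESeq2 and none had an adjusted p below 0.01 in edgeR, while 3 were higher and 1 was lower at an unadjusted p under 0.05, against 3.90% and 9.5% of all genes. Among all genes 0.0117% were called higher and 0.0468% lower, so that few calls were made anywhere, and the adjusted p alone was passed by 0.0585% and 0.105%. The groups did not overlap for 10 higher genes and 1 lower gene, beside 9.12% and 16.6% of all genes. The median log2 fold change of the set was 0.15, beside a value within 0.01 of 0 over all genes. ITGA5 was measured at 36.1, 25.3 and 27.6 CPM in GO–Rg3, a log2 fold change of 0.09 ± 0.14 (SE, adjusted p = 0.822), ITGAV at 306, 359 and 306 CPM, at -0.12 ± 0.18 (SE, adjusted p = 0.829), and ITGB1 at 669.6, 823 and 713 CPM, at -0.11 ± 0.16 (SE, adjusted p = 0.833). All 3 overlapped the untreated samples.

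GO–Rg3 and GO had the same dose and time, so they were compared directly. Loading with Rg3 and other differences between the 2 carriers cannot be told apart here. Of the 50 genes, 0 were called higher and 1 lower, where 0.702% of all genes were called higher and 2.07% lower, and by the adjusted p alone 1 was higher and 4 were lower, against 7.33% and 6.25% of all genes. DESeq2 also called 0 higher and 1 lower, and at an unadjusted p under 0.05 it was 6 and 11 in edgeR, against 20.3% and 19.4% of all genes. Without GO replicate 1, 0 were called, and 1 was higher and 1 lower by the adjusted p, against 6.08% and 5.27%. The groups did not overlap for 5 higher and 13 lower genes, beside 20.1% and 18.9% of all genes. ITGA5 was lower in GO–Rg3, with values of 36.1, 25.3 and 27.6 CPM against 62, 55.8 and 56.1 CPM in GO. The groups did not overlap, and the log2 fold change of -0.96 ± 0.14 (SE, adjusted p = 0.000233) was past 1 without GO–Rg3 replicate 1 (-1.13) and -0.91 without GO replicate 1. ITGAV was higher in GO–Rg3, with 306, 359 and 306 CPM against 119.7, 245 and 215 CPM. Its log2 fold change was 0.74 ± 0.18 (SE, adjusted p = 0.00817), 0.49 without GO replicate 1 (adjusted p = 0.00349), and did not pass without GO replicate 3 or GO–Rg3 replicate 2 or 3 (0.66 to 0.82, adjusted p = 0.0162 to 0.0315).

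The called gene was LAMB3, a beta chain of the laminin of surface epithelia, which was low. It was measured at 0.757, 0.45 and 0.566 CPM in GO–Rg3 and 1.76, 1.12 and 1.08 CPM in GO, without overlap, with a log2 fold change of -1.12 ± 0.26 (SE, adjusted p = 0.00609). With the GC offset LAMB3 lost its call, at -0.90, and ITGB6 was called, at -1.09 (adjusted p = 0.00205). Without the offset LAMB3 was -0.88 without GO replicate 1 (adjusted p = 0.0215), and did not pass without GO–Rg3 replicate 2 or 3 either (-0.97 and -1.08, adjusted p = 0.027 and 0.0286). ITGB6 had -0.87 ± 0.22 (SE, adjusted p = 0.00934) and did not pass when any sample was left out. COL9A2 had -0.73 ± 0.19 (SE, adjusted p = 0.00943) and did not pass without GO replicate 1 or 3 or GO–Rg3 replicate 2 or 3 (-0.53 to -0.77). Of genes named against untreated cells, COL6A1 (-0.59 ± 0.19 SE, adjusted p = 0.0291), COL27A1 (-0.35 ± 0.10 SE, adjusted p = 0.0158), ITGB5 (-0.32 ± 0.10 SE, adjusted p = 0.0288) and ITGB1 (0.48 ± 0.16 SE, adjusted p = 0.0404) did not pass. The GO comparisons share the GO samples, and their values are given side by side only. With library totals the median of all genes was 0.12, their calls went from 120 higher and 353 lower to 220 and 231, and the number of the 50 genes with a log2 fold change above 0 went from 12 to 28, so that no direction is given for the set as a whole.

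Ratios of partner chains within a sample do not depend on scaling. They can still depend on base composition, since partners differ in GC content (38.3% for ITGAV, 54.6% for ITGB5, 66.4% for LAMA5 and 48.8% for LAMC1). The ratio of ITGAV to ITGB5, in CPM per kb, was 1.97 to 2.07 in untreated cells, 0.518 to 1.05 in GO, 1.42 to 2.23 in GO–Rg3 and 0.731 to 0.859 in GO–Rg3–DOX. The GO and GO–Rg3–DOX samples lay below all untreated and GO–Rg3 samples. With the GC offset ITGAV and ITGB5 had log2 fold changes of -0.55 and 0.25 in GO, which keeps that direction. The ratio of ITGAV to ITGB1 was 0.229 to 0.241 in untreated cells, 0.178 to 0.203 in GO, 0.228 to 0.242 in GO–Rg3 and 0.124 to 0.131 in GO–Rg3–DOX. Here GO–Rg3–DOX lay below all other samples, and GO below untreated and GO–Rg3. These ratios are descriptions and were not tested.

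Among chains of the same trimers, the ratio of LAMB1 to LAMC1 was 1.53 to 1.64 in untreated cells, 1.09 to 1.20 in GO, 1.47 to 1.67 in GO–Rg3 and 1.26 to 1.41 in GO–Rg3–DOX. LAMB1 was lower relative to LAMC1 in all GO and GO–Rg3–DOX samples than in any untreated one. LAMA5 to LAMC1 was 0.104 to 0.108 in untreated cells, 0.117 to 0.124 in GO, 0.0785 to 0.166 in GO–Rg3 and 0.137 to 0.219 in GO–Rg3–DOX. The GO and GO–Rg3–DOX samples lay above the untreated ones, and GO–Rg3 lay on both sides. With the GC offset the log2 fold changes in GO were -0.005 for LAMA5 and 0.29 for LAMC1. LAMA5 thus did not rise relative to LAMC1 in GO with that offset. In GO–Rg3–DOX LAMA5 had 1.63 without the offset and 0.82 with it, while LAMC1 had 0.89 without it. The part of base composition in the higher ratio there was not tested. The ratio of COL6A1 to COL6A2 was 23.9 to 43.9 in untreated cells and 15.8 to 40.2 in GO–Rg3–DOX, and that of COL4A5 to COL4A6 was 27.0 to 52.9 and 27.4 to 36.01. The ranges of both overlapped.

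Genes that act with integrins, laminins and collagens were read from lists fixed by symbol. By the adjusted p, which the list counts below use, 25.5% of all genes were higher and 30.5% lower in GO–Rg3–DOX, 12.1% and 15.4% in GO, and 7.33% and 6.25% in GO–Rg3 against GO. From each list the genes named are among the 3 with the largest change among those past the adjusted p and with a mean of at least 1 CPM. Collagen biosynthesis and cross-linking genes, which hydroxylate, glycosylate, fold and cross-link the chains, passed the adjusted p in 19 of 24 cases in GO–Rg3–DOX, all higher, beside 25.5% of all genes, and 8 were called, beside 12.6%. The galactosyltransferases COLGALT2 and COLGALT1 had log2 fold changes of 2.45 ± 0.29 (SE, adjusted p = 2.27e-06) and 1.503 ± 0.13 (SE, adjusted p = 1.19e-07), with 2.23 against 0.409 CPM and 597 against 211 CPM. PCOLCE, which enhances the cutting of procollagen, had 1.91 ± 0.21 (SE, adjusted p = 1.22e-06), with 16 against 4.24 CPM. In GO 9 genes of the list were higher and 1 lower, beside 12.1% and 15.4% of all genes, and without GO replicate 1 it was 5 and 2. The largest changes were in COLGALT1 (0.82 ± 0.13 SE, adjusted p = 0.000201), the prolyl hydroxylase subunit P4HA1 (0.64 ± 0.12 SE, adjusted p = 0.000761) and the cross-linking enzyme LOX (0.64 ± 0.11 SE, adjusted p = 0.000319). In GO–Rg3 against GO 5 were lower and 0 higher, beside 6.25% and 7.33% of all genes (4 and 0 without GO replicate 1), led by LOXL2 (-0.67), P4HA1 (-0.59) and P4HA2 (-0.57).

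Of the other basement membrane and adhesive matrix proteins, 12 of 21 were higher and 4 lower in GO–Rg3–DOX, beside 25.5% and 30.5% of all genes. The largest changes were in HSPG2 (perlecan, 1.64 ± 0.16 SE, adjusted p = 2.7e-07), AGRN (agrin, 1.55 ± 0.20 SE, adjusted p = 7.9e-06) and FBLN1 (fibulin, 1.39 ± 0.14 SE, adjusted p = 6.78e-07), whose mean levels were 362 against 116 CPM, 394 against 135 CPM and 849 against 323 CPM. In GO 7 were lower and 4 higher, beside 15.4% and 12.1% of all genes, and without GO replicate 1 it was 6 and 4. CYR61, a matricellular integrin ligand, fell from 108.1 CPM to 32.4 CPM (log2 fold change -1.74 ± 0.14 SE, adjusted p = 5.25e-07), MATN3 had -0.996 ± 0.13 (SE, adjusted p = 3.94e-05) and ECM1 had 0.91 ± 0.22 (SE, adjusted p = 0.00439). In GO–Rg3 against GO 7 were higher and 0 lower, beside 7.33% and 6.25% of all genes (5 and 0 without GO replicate 1), led by CYR61 (1.80), the adhesive glycoprotein THBS1 (0.82) and MATN3 (0.74).

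Among 11 receptors for matrix other than integrins, 7 were higher and 0 lower in GO–Rg3–DOX, beside 25.5% and 30.5% of all genes, with the largest changes in the laminin receptor BCAM (1.82 ± 0.20 SE, adjusted p = 1.23e-06), the syndecan SDC1 (1.27 ± 0.13 SE, adjusted p = 8.06e-07) and the tetraspanin CD151 (1.09 ± 0.17 SE, adjusted p = 3.81e-05). In GO 3 were higher and 0 lower, which were SDC3 (0.91), SDC4 (0.89) and BCAM (0.73), beside 12.1% and 15.4% of all genes. BCAM did not pass without GO replicate 1 (0.58, adjusted p = 0.0324). The integrin adhesome, the proteins that bind integrin tails and pass on their signals, was of mixed direction in GO–Rg3–DOX, with 7 of 27 higher and 6 lower, beside 25.5% and 30.5% of all genes. The largest changes in it were falls, in the exchange factor ARHGEF7 (-1.59 ± 0.11 SE, adjusted p = 6.69e-09), the tensin TNS1 (-1.53 ± 0.15 SE, adjusted p = 5.29e-07) and the scaffold NEDD9 (-1.43 ± 0.12 SE, adjusted p = 7.57e-08). In GO 4 were higher and 3 lower, and 6 and 3 without GO replicate 1, beside 12.1% and 15.4% of all genes, among them the kinase SRC (0.86) and the kindlin FERMT2 (-0.67), and in GO–Rg3 against GO SRC was lower (-0.69) and LIMS1 and FERMT2 were higher (0.65 and 0.62).

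Of 24 matrix proteases and inhibitors, 10 were higher and 0 lower in GO–Rg3–DOX, beside 25.5% and 30.5% of all genes, led by MMP11 (1.85 ± 0.23 SE, adjusted p = 3.92e-06), ADAM15 (1.29 ± 0.16 SE, adjusted p = 4.01e-06) and MMP15 (1.11 ± 0.19 SE, adjusted p = 8.15e-05). In GO 5 were higher and 1 lower, beside 12.1% and 15.4% of all genes, and without GO replicate 1 it was 4 and 1. PLAU, the urokinase that activates plasmin, had -1.33 ± 0.12 (SE, adjusted p = 2.71e-06), while the inhibitor TIMP2 had 1.15 ± 0.18 (SE, adjusted p = 0.000161), which was 0.95 without GO replicate 1. In GO–Rg3 against GO 3 genes were lower, beside 6.25% of all genes, among them TIMP2 and MMP19 at -0.95 and -0.77, and 1 gene of the list was higher, PLAU at 0.67. Of the 6 integrin alpha subunits with letters in their names, ITGAL and ITGAM passed higher in GO–Rg3–DOX at 1 CPM or more, at 1.12 ± 0.14 (SE, adjusted p = 3.38e-06) and 0.99 ± 0.15 (SE, adjusted p = 2.98e-05), and ITGA2B at a lower level. In GO ITGAL was 0.995, ITGAE was -0.83 (-1.13 without GO replicate 1), and ITGAX passed at a lower level. In GO–Rg3 against untreated cells no gene of these lists had an adjusted p below 0.01.

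**Figure D5:**
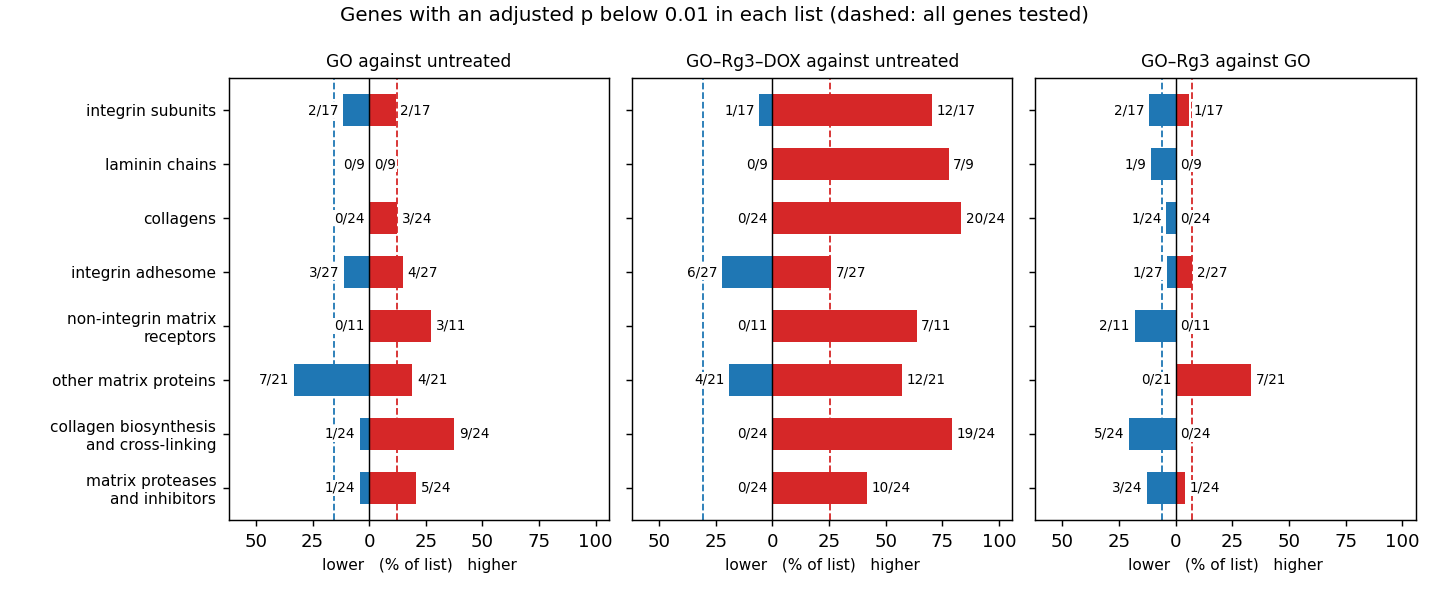
Percent of the tested genes in each list with an adjusted p below 0.01, higher to the right (red) and lower to the left (blue), with counts beside the bars and dashed lines for all genes tested. In GO–Rg3–DOX 20 of 24 collagens and 19 of 24 collagen biosynthesis genes are higher, while the adhesome has 7 higher and 6 lower of 27.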

How the data were processed

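Gene counts for 12 samples of Huh7 cells were deposited by the authors as raw counts per gene, made with featureCounts on GRCh37 from Illumina TruSeq Stranded mRNA libraries in the NGI-RNAseq pipeline. Whether strand was used in counting is not given in the sources used here. A gene was tested where 3 or more samples reached 10 counts, which held for 17092 of 63677. Counts were scaled by TMM and all 12 samples were fitted by edgeR 4.0.16 in R 4.3.3 with the quasi-likelihood test, with Benjamini-Hochberg adjustment over all genes tested. The standard error is the log2 fold change divided by the square root of F. CPM values used library sizes scaled by TMM, with factors of 1.09 to 1.10 in untreated and 0.737 to 0.863 in GO–Rg3–DOX samples, and lengths, GC content and coordinates came from GENCODE v44 on GRCh37, with a length and GC value for 97.3% of the genes tested. Genes were named by a rule: the 8 called genes with the largest change and a mean of at least 1 CPM, the 6 highest by untreated level, the other called genes, and the 3 largest changes of each related list. The genes and lists were chosen with earlier results of these data known. Some genes that these rules would name or plot are not reported here, though counts include them. Alternatives were RLE scaling, library totals, no filter, 10 counts in every sample, DESeq2 1.42.0, a replicate block, offsets for length and GC content, the 6 samples compared alone and each sample left out. The test was checked on simulated counts. Depth limits the low genes most, and limits from counts cover counting error only.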

Additional observations from a re-analysis of the deposited data

How the results depend on the processing

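Under RLE scaling, DESeq2, a length offset and 10 counts in every sample or no filter, the number of genes called in GO–Rg3–DOX stayed within 1.5 times of 31, and it was 27 to 29 with a sample left out. It was 17 with the GC offset, 16 with the GC offset and the replicate block, and 12 with library totals, where 1 was called lower in place of 0. The 1 gene called higher in GO became 0 with library totals and 2 without the filter, in the 6 samples alone and at an adjusted p of 0.05, where COL6A2 was added, and 1 to 2 with a sample left out, while 0 to 1 were lower. The 1 gene called lower in GO–Rg3 against GO became 0 with library totals and in the 6 samples alone, 2 with a length offset, and 0 to 2 with a sample left out. With the GC offset the gene called was ITGB6 in place of ITGA5 in GO and in place of LAMB3 in GO–Rg3 against GO. ITGAV in GO–Rg3–DOX reversed to 0.15 with the GC offset, with or without the block, and ITGA5 in GO–Rg3 against untreated cells reversed without GO–Rg3 replicate 1, with values of -0.073 to 0.19 when a sample was left out. The cause was not tested. GO–Rg3 against untreated cells had 0 calls under every alternative. Samples of the same replicate number did not deviate together in every pair (correlations of -0.024 to 0.239). For replicates 1 and 2 they were 0.24 and 0.17 between GO–Rg3 and untreated cells, and 0.20 and 0.23 between GO–Rg3 and GO. Unlike numbers among replicates 1 and 2 gave -0.19 to -0.21 there. What samples of the same number share is not given in the labels and was not tested. With the replicate block 1 gene was called higher in GO, 30 in GO–Rg3–DOX and 0 in GO–Rg3 against GO, where 1 was lower.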
